A study of Mus musculus with 8 samples.

Results

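H3 target sites 2 and 9 are 2 of the 9 sequenced copies of the histone H3 target. Cytosine 5 is the base whose change turns arginine 17 of H3 into histidine. At the 2 sites its mean share of thymine in edited libraries was the lowest of the 9. These are 2 of the 26 sites in the deposited table and were taken whole, at all 20 positions and in all 8 libraries. They were chosen by their low share of reads with thymine at position 5 (C5T) in edited libraries, so that share, and every other edited against wild-type value at these sites, is given as a description without a test. The data are base calls from PCR products of genomic DNA of C57BL/6 mouse embryos aged 19.5 days after microinjection. In 4 libraries the embryos are H3R17/Carm1 wild type, and in 4 they carry the genotype H3R17H/Carm1-/-; these are called wild type and edited here. The labels name neither the editor, the guides nor the dose, and do not say whether each library came from a separate embryo or whether each embryo carried both changes. Genomic DNA holds no expression markers, so the labelled tissue was not checked.

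Cytosine base editors join a Cas9 protein that does not cut both strands to a deaminase, which turns cytosine into uracil at a few positions of the guide's target. Uracil is then read as thymine. Embryos injected with such an editor can be mosaic, because cells may be edited at different divisions and in different ways. Histone H3 is encoded by many nearly identical genes, so a single guide can address several copies, and a short read may match more than one of them. Arginine 17 of H3 is a residue that the methyltransferase CARM1 is known to methylate.

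The 20 bases are shown because the pair differ from each other at a single base, which also serves below to tell their reads apart. Positions run from 1 at the 5′ end of the strand on which cytosine 5 lies, and capitals mark position 5 and position 10.
H3 target site 2: cttgCgcggGgccttgccgc
H3 target site 9: cttgCgcggAgccttgccgc
H3 is encoded on the opposite strand, where site 2 reads gcggcaaggccccgCGCaag and site 9 reads gcggcaaggctccgCGCaag, with the codon of arginine 17 in capitals. Site 2 has the same 20 bases as sites 1 and 3 to 8. Site 9 differs from them by G10A, which leaves alanine 15 unchanged. On the coding strand, C5T gives R17H, C5A gives R17L and C5G gives R17P, whereas changes G4A, C7T, C7A and C13T are synonymous, at arginine 17, proline 16 and lysine 14. No coordinate or gene name accompanies either site in the table, so neither is assigned to a named H3 gene.

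Base calls summed over all sites numbered 163319860 to 188535289 per library. The median depth of site 2 was 26018.5 to 43396.5 base calls per library, and that of site 9 was 33333.5 to 57559. Site 2 took 9.35 to 11.6% of the summed median depth of the 9 H3 sites and site 9 took 11.4 to 15.3%, both highest in edited replicate 2. Wilson 95% intervals in what follows cover counting error only. Molecular identifiers are not given for the PCR reads, so several reads may stem from 1 molecule.

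C5T at site 2 was at a similar low level in every edited library. Whether the reads with C5T come from site 2 itself was not tested. C5T was found in 2.53%, 2.40%, 2.67% and 2.34% of base calls at site 2 in edited replicates 1 to 4, a mean of 2.49% ± 0.149 (SD, n = 4). The lowest of these, in replicate 4, had a Wilson 95% interval of 2.18 to 2.50%, which overlaps the 2.36 to 2.72% of replicate 1. In wild-type replicates 1 to 4 the share was 0.0112%, 0.0135%, 0.0217% and 0.0271%, from 3, 4, 9 and 7 reads. Edited and wild-type values did not overlap, and the edited values spanned 2.34 to 2.67%. Among the sites of identical sequence, edited C5T spanned 28.9 to 51.8% at site 1, 36.7 to 57.2% over sites 3, 4, 5 and 8, 5.18 to 93.9% at site 6 and 2.27 to 96.5% at site 7.

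Site 9 had a similar low level in 3 edited libraries and a high one in the remaining library, so the description as a poorly converted site does not hold for edited replicate 2. C5T was found in 2.61%, 30.4%, 2.53% and 2.07% of base calls at site 9 in edited replicates 1 to 4. The mean of 9.41% ± 14.0 (SD, n = 4) fell to 2.40% without replicate 2. In replicate 2 it rested on 16791 of 55192 base calls, with a Wilson 95% interval of 30.0 to 30.8%. Wild-type replicates 1 to 4 had 0.0275%, 0.0302%, 0.0291% and 0.0334%, from 10 to 15 reads each, and did not overlap the edited values. Of the 9 H3 sites, the one with the next higher edited mean was site 1, at 42.9% ± 10.1 (n = 4).

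In edited replicate 2, site 9 also lacked base calls over 5 neighbouring positions, 11 to 15. The count of base calls at site 9 in that library was 58253 at position 10, 40339 at position 11, 40307 at position 12, 40054 at position 13, 38714 at position 14, 38733 at position 15 and 58448 at position 16. Calls over the 5 positions averaged 67.9% of those at the flanking positions 10 and 16, against 97.1 to 98.4% in the other 7 libraries at site 9 and 97.9 to 98.8% in all 8 libraries at site 2. Relative to the wild-type mean of 98.0%, 30.7% of the calls were missing there, close to the 30.4% of C5T in the same library. The table holds no per-read values, so whether the reads with C5T are the reads without calls at positions 11 to 15 was not tested. Nor was it tested whether the missing calls are deleted bases.

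No other H3 copy fell below 0.9 of its wild-type depth profile at all 5 positions. Among 36 combinations of the 9 H3 sites with the 4 edited libraries, positions with under 0.9 of the wild-type depth profile numbered 5 at site 9 in edited replicate 2. They numbered 2 at site 7 in edited replicate 2, at positions 5 and 7, and no more than 1 in each of the other combinations. Site 2 had none in any edited library. At site 1 in edited replicate 1 the calls at positions 11 to 15 averaged 88.0% of the flanks, with position 15 the one under 0.9 of the wild-type profile. In the other 70 combinations of an H3 site and a library, wild type included, they were 96.5 to 98.8% of the flanks.

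A second product was prominent in 1 library at site 9. C13T, which changes the codon of lysine 14 from AAG to AAA and keeps lysine, was found in 36.4% of base calls at site 9 in edited replicate 1. It was found in 0.00250%, 0.0215% and 0.00728% in edited replicates 2 to 4, and in at most 0.0150% in wild type. In edited replicate 1, 33920 base calls were made at position 13, which is 0.965 of the site's median depth against at least 0.999 in wild type. Site 9 thus held a different main change in each of edited replicates 1 and 2, at position 13 and at position 5, and no product above 4.72% in replicates 3 and 4. At cytosine 12, beside it, no product reached 0.1% in any library at either site.

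At position 5, products other than thymine were rare at both sites. C5A, which gives leucine, was found in 0.0740%, 0.345%, 0.0512% and 0.00873% of base calls at site 2 in edited replicates 1 to 4, and in 0.0866%, 0.339%, 0.0460% and 0% at site 9. The count of 0 there allows a share of up to 0.00742%. Both sites had their highest C5A in edited replicate 2, and wild-type shares were at most 0.0112%. C5G, which gives proline, reached 0.111% at site 9 in edited replicate 3 and was at most 0.0137% in the other 7 libraries there. Site 2 had 0.0922% in the same library and at most 0.00965% in its other 7, a value under the 0.1% used for naming and named here after it was seen.

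At position 7, synonymous products were high and low in the same libraries at the 2 sites. C7T was found in 0.0319%, 0.541%, 0.151% and 0.573% of base calls at site 2 in edited replicates 1 to 4, and in 0.0379%, 0.496%, 0.127% and 0.536% at site 9. Wild-type shares of C7T were at most 0.0195% at site 2 and 0.0184% at site 9, below every edited value. C7A was found in 0.628%, 0.00705%, 0.00344% and 0.792% at site 2 in the same order, and in 0.452%, 0.0123%, 0% and 0.729% at site 9. Edited replicates 1 and 4 were thus high for C7A at both sites, while replicates 2 and 3 were low. Wild-type C7A was at most 0.0239% at site 2 and 0.00613% at site 9. The 0.0123% of edited replicate 2 at site 9 lay above the wild-type values of that site.

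Position 10 separates reads of site 9 from reads of the other copies. At site 9, where the reference base is adenine, A10G was found in 4.35%, 5.75%, 5.02% and 4.26% of base calls in wild-type replicates 1 to 4 and in 6.68%, 5.06%, 4.71% and 4.72% in edited replicates 1 to 4. The means were 4.84% ± 0.695 and 5.29% ± 0.940 (SD, n = 4 each), and the groups overlapped. At site 2, where the reference base is guanine, G10A was found in 0.739%, 0.730%, 0.742% and 0.658% in wild type and in 1.05%, 0.860%, 0.685% and 0.697% in edited libraries. Each site therefore held reads with the other site's base at position 10 in both groups, and edited replicate 1 was highest at both. G10A at site 2 was the lowest of sites 1 to 8 in 7 of 8 libraries. It ran from 0.756 to 2.12% at sites 1, 6 and 7 and from 3.93 to 6.44% at sites 3, 4, 5 and 8.

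The C13T change of site 9 in edited replicate 1 gives a further mark of such reads. C13T was found in 0.356% of base calls at site 2 in that library and in at most 0.0115% in the other 7 libraries there. Set against the reads with adenine at position 10, C13T made up 33.9 per 100 at site 2 and 39.0 per 100 at site 9. At sites 1 and 3 to 8 the same figure was 37.7 to 45.0 per 100, with C13T shares of 0.492 to 2.19%. Reads with adenine at position 10 thus came with C13T in similar proportion at all 9 sites, although linkage on single reads is not given in the table.

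G4A and G19A were possible marks of reads assigned the other way and were present in wild-type libraries too. Where the reads with them came from was not tested. They were prominent at sites 3, 4, 5 and 8. Reads of these sites were pooled here because they had near-identical values, such as edited C5T means of 46.6 to 46.7%. Less alike was G10A in edited replicate 2, at 4.15% at site 8 against 6.08 to 6.44% at sites 3, 4 and 5. Pooled G4A was 18.8 to 21.5% in wild-type replicates 2 to 4 and edited replicates 1 and 3, and 0.0142 to 0.108% in the other 3 libraries. In wild-type replicates 1 to 4, G4A was found in 0%, 1.03%, 0.862% and 0.856% of base calls at site 2, and in 0.00541%, 1.01%, 0.824% and 0.705% at site 9. In edited replicates 1 to 4 it was found in 1.11%, 0.0137%, 0.787% and 0.0114% at site 2, and in 1.20%, 0.0172%, 0.815% and 0.0121% at site 9. The same 5 libraries were high at both sites and in the pool. G19A was 0.778 to 0.962% at site 2 and 0.981 to 1.45% at site 9 in those 5 libraries, higher at site 9 in 5 of 5, and at most 0.0480% at either site in the other 3. Sites 1, 6 and 7 also held both changes at low shares. G4A there was at most 1.42%, 1.93% and 0.793%, in that order, and G19A at most 1.36%, 2.67% and 1.39%.

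Shares at both sites were then set against the pooled shares at sites 3, 4, 5 and 8. For G4A, G19A, C5T, C5A, C7T and C7A, each library with a pooled share of at least 1% was used, which gave 20 values per site. G10A and C13T, the base and the change of site 9, were kept apart. At site 2 the share was 3.88 to 15.5% of the pooled one, with a median of 4.65%. For G10A it was 11.8 to 18.8% at site 2 in the 8 libraries, and for C13T in edited replicate 1 it was 16.6%, so the percentage differed between changes. For G4A and G19A in wild-type libraries it was 3.98 to 5.20% at site 2 and 3.28 to 6.43% at site 9. For C5T it was 6.86%, 5.45%, 4.71% and 4.79% at site 2 in edited replicates 1 to 4. The corresponding C5T values of site 9 were 7.06%, 4.45% and 4.23% for edited replicates 1, 3 and 4, and 69.0% for replicate 2, far from all other values.

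At site 2, C5T was set beside what the other changes in the same library would give. The percentage found for each change other than C5T was multiplied by pooled C5T, which makes 10 products over the 4 edited libraries, 3 of them in each of edited replicates 1 and 3. C5T at site 2 lay above the product in 7 of 10 and below it in 3, and the differences ran from -4.44 to 0.632 percentage points. The 3 below were C7T in edited replicates 2 and 3, at -4.44 and -1.13, and C7A in edited replicate 1, at -0.223. The direction thus varied with the change used, and no excess or deficit of C5T is read from it. These products assume that the reads came from sites 3, 4, 5 and 8. Sites 1, 6 and 7 carry the same 20 bases, had C5T of 2.27 to 96.5% in edited libraries and had G4A of at most 1.93%, and their part was not tested.

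At site 9 the changes were also set against the reads with A10G. Per 100 reads with A10G, G4A came to 16.4 to 17.9 in the 5 libraries with pooled G4A of 18.8 to 21.5%. G19A came to 21.1 to 23.04 per 100 against pooled G19A of 18.7 to 21.4%, above the pooled share in 5 of 5. C5T came to 39.0, 53.6 and 43.7 per 100 in edited replicates 1, 3 and 4, against pooled C5T of 36.9%, 56.8% and 48.8%. C7A came to 6.76 and 15.4 per 100 in edited replicates 1 and 4, against 8.41% and 19.5%. C7T came to 9.81, 2.70 and 11.3 per 100 in edited replicates 2, 3 and 4, against 3.49%, 2.26% and 13.6%. In edited replicate 2, C5A came to 6.70 per 100 against 7.69%, but C5T came to 601 per 100, which is more reads with C5T than reads with A10G. A10G times pooled C5T was 2.23% there, so 28.2 percentage points of the 30.4% were beyond it. In edited replicates 1, 3 and 4 the differences were 0.138, -0.148 and -0.239 percentage points.

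C7T in edited replicate 2 was the exception shared by both sites. It was 15.5% of the pooled C7T share at site 2 and 14.2% at site 9, against 4.21 to 6.69% and 3.94 to 5.63% in edited replicates 3 and 4. Pooled C7T was 3.49% in edited replicate 2, whereas site 1 had 53.6% and site 7 had 89.5% in that library. In edited replicate 3, site 7 also had more C7T than the pool, at 19.4% against 2.26%.

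Site 2 and site 9 were then compared with each other within each library, a comparison that did not choose them. The share of base calls other than the reference base was compared at the 19 positions other than position 5, with an exact two-sided sign-flip permutation test of the paired difference over 8 libraries. With Benjamini-Hochberg adjustment over 36 pairs of H3 sites and 20 positions, 0 of 19 positions passed, against a background of 0% of 720. At an unadjusted p under 0.05, 6 of 19 positions passed, with 18.3% of the 720 doing so. On log2 odds 0 of 19 passed as well. The smallest p that 8 libraries can give is 0.00781, which came to 0.0815 after adjustment, so no position could pass.

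At position 11 site 2 was higher than site 9 in 8 of 8 libraries, by 0.0690 percentage points ± 0.0159 (SD of the difference, n = 8, exact sign-flip p = 0.00781, adjusted p = 0.0815). The change there was mainly G11A, which would give A15V. It was 0.0517 to 0.101% at site 2 and 0.0161 to 0.0236% at site 9, and site 9 was the lowest of the 9 H3 sites in 8 of 8 libraries, beside its own adenine at position 10. Position 10 itself differed by -4.30 percentage points ± 0.704 (site 2 minus site 9, n = 8, exact sign-flip p = 0.00781, adjusted p = 0.0815), lower at site 2 in 8 of 8 libraries. C17T, which would give G13D, was 0.0698 to 0.110% at site 2 and 0.0331 to 0.0841% at site 9, in wild-type and edited libraries alike.

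All other products were scarce. Of the 60 possible products at each site, 11 at site 2 and 9 at site 9 reached 0.1% in at least 1 library. The highest share among the rest was 0.0922% at site 2 and 0.0955% at site 9. C1T reached 0.101% at site 2 and 0.0952% at site 9, both in edited replicate 3, and was at most 0.0173% in the other libraries at either site. C1A, which would give K18N, reached 0.0899% and 0.0955%, both in edited replicate 1. Low-level changes at position 1 were thus high in the same library at both sites.

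At 3 of 60 products at each site, all 4 edited shares lay above all 4 wild-type shares, against 3.78% of 1560 products over all 26 sites. They were C5T, C7T and G16T at site 2, and C1T, C5T and C7T at site 9. G16T and C1T at site 9 are named here after their values were seen. At site 2 G16T was 0.00284 to 0.0103% in edited libraries and at most 0.00237% in wild type. Each of these G16T shares rests on a few reads at most, of 26259 to 43694 base calls. At site 9 C1T was 0.0112%, 0.0104%, 0.0952% and 0.0121% in edited replicates 1 to 4 and at most 0.00953% in wild type. Outside edited replicate 3 its groups were thus nearly level, on a few reads each. No product at either site had all edited shares below all wild-type shares, against 1.41% of the 1560. In a limma fit over all 520 site-positions, 23 were called at an adjusted p under 0.05, or 4.42%. These included positions 5 and 7 at both sites, and since this contrast chose the sites nothing is read from those calls.

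The depth profile along site 2 was flat and alike in all libraries. Relative to the site's median, wild-type depth at site 2 was lowest at position 2, at 0.959 ± 0.00853 (SD, n = 4), and highest at position 16, at 1.01 ± 0.00139. At position 5 it was 0.991 ± 0.00118. No position of site 2 in any edited library fell below 0.98 of the wild-type profile. Site 9 had a similar shape in wild type, lowest at position 2, at 0.963 ± 0.00660, and highest at position 19, at 1.01 ± 0.000619.

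Besides the gap, depth at position 5 of site 9 was 0.986, 0.959, 0.984 and 0.981 of the site's median in edited replicates 1 to 4, against 0.988 to 0.990 in wild type, without overlap. This was 1 of the 40 positions of the 2 sites with edited depth entirely below wild type, against 2.69% of all 520 positions, a share near the background, so nothing particular to the site is read from it. None of the 40 lay entirely above, against 5.38%.

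Within libraries, the depth profiles of the 2 sites differed by small amounts. With depth taken over the mean of the site's 20 positions, 6 of 20 positions passed the exact sign-flip test at an adjusted p of 0.0477, against a background of 16.4% of the 720 comparisons. Site 2 was lower at positions 2, 6, 8 and 10 and higher at positions 12 and 13, each in 8 of 8 libraries. With depth taken over the median, which the gap of edited replicate 2 moves less, 0 of 20 passed, 9 having an unadjusted p under 0.05. The smallest sign-flip p that 8 libraries can give, 0.00781, came to 0.0703 after adjustment there, so no position could pass. Positions 2, 6, 8, 10, 12, 19 and 20 had that p, each with the same direction in 8 of 8 libraries. Site 2 was higher at positions 12 and 20 and lower at the rest of them. At position 10 the difference over the median was -0.0127 ± 0.000932 (site 2 minus site 9, SD, n = 8, exact sign-flip p = 0.00781, adjusted p = 0.0703). Leaving out any 1 library also left 0 positions, and 7 libraries can give no p below 0.0156.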

How the data were processed

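The authors deposited 1 table with a line for each of 26 sites, 20 positions and 8 libraries. Per the file headers, it holds the deposited count of reads called at each position and, in 4 columns, the percent of these calls for every base, both made by the authors. Bowtie 0.12.2 and the builds mm8 and mm10 appear, without roles, in the submitters' processing notes. How reads were filtered and divided among H3 copies was not given in the sources used here. Each percent times its count lay within 0.01 of a whole read, so base counts were recovered. Library names were matched to the labels by initials (W, CH) and number, and lines listed from position 20 to 1 were reversed.

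The 2 sites and the tests were chosen with earlier results of these data known. A product was named where its share reached 0.1% in at least 1 library, and C5T and C7T always. Pairs of sites were compared with exact sign-flip tests, and limma 3.58.1 (R 4.3.3) was fitted to log2 odds with a pseudocount of 0.5 over the deposited counts. Both scripts were tested on simulated data. Where nothing says that libraries are separate embryos, p-values measure only the spread between these libraries. The remaining work was done in Python 3.11.15 with scipy 1.17.1, numpy 2.4.6, biopython 1.88 and pandas 2.3.3. Alternatives were other denominators, depth scales, pseudocounts and depth minimums, a replicate block, and leaving out each library.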

Additional observations from a re-analysis of the deposited data

Results flagged for a closer look

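Of 44 groups of 4 libraries checked at the 2 sites, 10 held a library far from the other 3 by Dixon's criterion. Apart from C5T and C7T, products were checked because they reached 0.1% in at least 1 library, and the 2 sites share changes. The count of 10 is therefore not set against chance. At site 9, edited replicate 2 stood apart with 30.4% C5T against 2.07 to 2.61%, and with base calls at positions 11 to 15 at 67.9% of the flanks against 97.1 to 98.3%. Edited replicate 1 stood apart with 36.4% C13T at site 9 against at most 0.0215%, and with 0.356% C13T at site 2 against at most 0.0115%. Edited replicate 3 stood apart with 0.111% C5G at site 9 against at most 0.00544%, and with 0.101% C1T at site 2 against at most 0.0173%. Wild-type replicate 1 was low at site 2 for G4A, at 0% against 0.856 to 1.03%, and for G19A, at 0.0220% against 0.804 to 0.908%. Wild-type replicate 2 was high for C7A at site 2, at 0.0239% against at most 0.00487%. Wild-type replicate 4 was low for G10A at site 2, at 0.658% against 0.730 to 0.742%. Dixon's criterion does not weigh counting error. No interval was computed for these C7A and G10A values, which come from 29288 and 25977 base calls.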

How the results depend on the processing

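Edited C5T at site 2 averaged 2.49% and stayed at 2.42 to 2.54% with each edited library left out. At site 9 the mean of 9.41% ran from 2.40% to 11.9%, the lowest without edited replicate 2. Counting only C and T calls, or dividing by the site's mean depth, gave 2.49% and 2.47% at site 2 and 9.43% and 9.70% at site 9. A10G at site 9 was 4.83 to 5.49% in edited and 4.54 to 5.04% in wild-type libraries with each left out. The median percentage of pooled shares was 4.43 to 4.75% at site 2 and 4.52 to 5.37% at site 9 with each library left out, and 4.53% and 4.83% with a pooled share of at least 5%. The count of positions where site 2 and site 9 differed in relative depth was 6, but 0 with depth over the median and 0 with any 1 library left out. It stayed at 6 with positions 11 to 15 left out of the mean, a setting chosen after seeing the data. For the non-reference share the count was 0 in every setting run. With 8 libraries the smallest possible sign-flip p came to 0.0815 after adjustment, on shares and on log2 odds. For depth over the median it came to 0.0703, so no position could pass in these settings. With 7 libraries no p can fall below 0.0156. No stability is therefore read from any of these counts of 0.

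The limma count of 23 was 19 to 25 with each library left out and 16 with sites 3, 4, 5 and 8 taken as 1 site. With the replicate number as a block it was 18. The numbers do not pair the libraries: deviations of same-numbered libraries correlated at -0.543, -0.418, 0.536 and -0.531 over the 520 site-positions, and only number 3 matched its own number best. Depth limits the wild-type C5T shares, which rest on 3 to 15 reads per library.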
